A study of Mus musculus with 9 samples.

Results

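The nuclear genes for the subunits of the mitochondrial respiratory chain and the ATP synthase were described in 4 cell populations sorted from inflamed mouse lung. Members were taken by symbol, as every gene of the deposited table named Nduf followed by a, b, c, s or v, Sdha to Sdhd, Uqcr, Cox4 to Cox8, or Atp5. This gave 90 of 18193 genes. Of these, 34 encode subunits of complex I, 4 of complex II, 8 of complex III, 19 of complex IV or its tissue-restricted isoforms, and 17 of complex V. The symbol rule also took in 8 complex I assembly factors (Ndufaf1 to Ndufaf8), which are not subunits and are given apart. Ndufa4, first assigned to complex I, is counted with complex IV. Cox7b, Ndufa11, Ndufb4b, Ndufb4c and Ndufs6 had no probe set of a single symbol and were not analysed here.

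Complex I takes electrons from NADH and complex II from succinate, and both pass them to ubiquinone. Complex III hands them on to cytochrome c and complex IV to oxygen, and complex V uses the proton gradient that the chain builds to make ATP. Granulocytes, above all neutrophils, are known to rely mainly on glycolysis, while tissue macrophages keep active mitochondria.

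Female 4get mice on a BALB/c background, 6 to 8 weeks old, were given 0.5 µg of IL-25 into the trachea each day for 4 days. The 4get allele places green fluorescent protein (GFP) under the Il4 gene, all mice carried it, and all were treated, so no untreated lung cells were compared. Lung cells positive for CD11b, pooled from 4 mice per replicate, were sorted by surface markers, and 50 ng of RNA from 400000 cells was amplified for each of 9 Affymetrix arrays. The T2M (type 2 myeloid) gate took GFP-positive, F4/80-positive cells without the IL-5 receptor alpha chain, with low MHC class II and intermediate Gr-1 (3 arrays), and the 3 other gates took GFP-negative cells. Eosinophils were sorted as receptor-positive, F4/80-negative cells low in MHC class II and high in Gr-1, neutrophils as receptor-negative, F4/80-negative, Gr-1-positive cells low in MHC class II, and macrophages as receptor-negative, F4/80-positive, Gr-1-negative cells that carried MHC class II (2 arrays each).

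Marker genes went against the labels, so populations are named by the label of their arrays. The median log2 level of 6 eosinophil genes was 9.31, 9.67 and 10.12 on the T2M arrays, 5.85 and 5.57 on the eosinophil-labelled arrays, 7.47 and 4.21 on the neutrophil-labelled arrays and 4.67 and 4.56 on the macrophage-labelled arrays. The median of 9 neutrophil genes was highest on the eosinophil-labelled arrays (11.57 and 12.31, against 5.89 to 9.08 elsewhere). The median of 9 macrophage genes was 10.91, 9.95 and 10.02 on the T2M arrays, 9.45 and 8.83 on the eosinophil-labelled arrays, 11.40 and 10.85 on the neutrophil-labelled arrays and 8.61 and 8.15 on the macrophage-labelled arrays, which were lowest. Which cells the labels hold was not tested. The Gapdh control, whose 3′ minus 5′ log2 difference grows as RNA is shortened, read 3.43, 2.35 and 2.97 on the T2M arrays, 2.41 and 1.09 on the eosinophil-labelled arrays, 2.20 and 1.45 on the neutrophil-labelled arrays and 1.02 and 1.20 on the macrophage-labelled arrays. The 2 macrophage-labelled arrays correlated at 0.995 over all genes, against 0.922 to 0.974 for the other replicate pairs, and the fit on all 9 arrays includes the small spread between them.

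Most members gave strong signals. On a log2 scale, 79 of 90 had a mean level above the median gene (6.23) and 53 lay above the 90th percentile (9.31). Among the 11 at or below the median were 6 of the 8 tissue-restricted complex IV isoforms. Probe sets differ in brightness, so levels are compared between arrays for 1 gene and not between genes.

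The chain's genes were lowest on eosinophil-labelled and T2M arrays and highest on macrophage-labelled and neutrophil-labelled arrays. Over the 82 subunit genes the median log2 level was 9.47, 9.85 and 9.27 on T2M arrays, 9.15 and 9.16 on eosinophil-labelled arrays, 10.16 and 10.92 on neutrophil-labelled arrays, and 10.72 and 10.72 on macrophage-labelled arrays. All 5 T2M and eosinophil-labelled arrays were thus below the other 4, with the narrowest gap between T2M 2 and neutrophil 1. The median over all genes stayed between 6.03 and 6.22 on every array. Over genes above the median level it was 7.85, 7.69 and 7.71 on T2M arrays, 7.80 and 7.66 on eosinophil-labelled arrays, 7.71 and 8.28 on neutrophil-labelled arrays, and 8.31 and 8.21 on macrophage-labelled arrays, so bright genes in general were also higher on the last 3 of these arrays. By label means, eosinophils were lowest for 58 of 90 members and T2M for 23, while macrophages were highest for 51 and neutrophils for 29. Of all 18193 genes, eosinophils were lowest for 4559 and T2M for 2919, while macrophages were highest for 5158 and neutrophils for 4113. The T2M and eosinophil means were both below the neutrophil and macrophage means for 63 of 90 members (70%), as for 23.5% of all genes. In sorted populations, fewer cells of a type and less RNA per cell cannot be told apart.

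**Figure D1:**
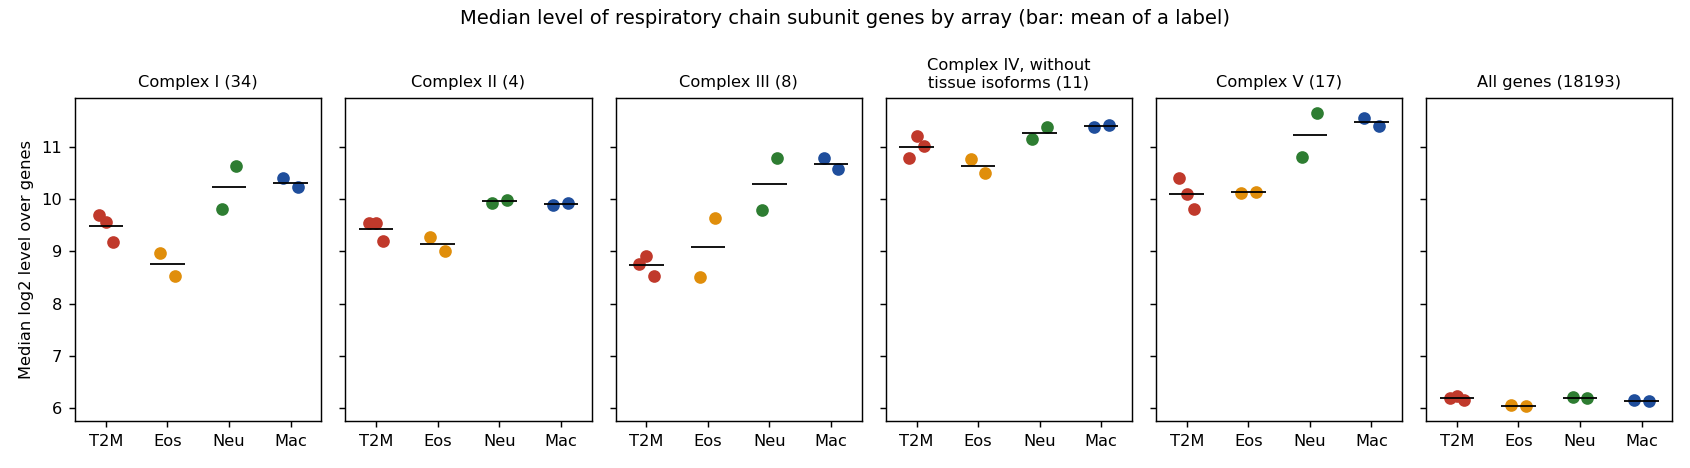
Median log2 level over the genes of each complex on every array (points, with the number of genes in the panel title), and the mean of each label (bars); complex IV is drawn without its tissue-restricted isoforms. The complex V medians of the T2M and eosinophil-labelled arrays lie between 9.81 and 10.41, below 10.81 to 11.65 on the neutrophil-labelled and macrophage-labelled arrays, while the medians over all genes lie between 6.03 and 6.22.

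Among the 4 labels, 38 of 90 members (42.2%) differed by limma's moderated F test at an adjusted p under 0.05. Of all genes 17.8% differed, and of genes above the median level 27.9%. The share was 18 of 34 in complex I, 0 of 4 in complex II, 4 of 8 in complex III, 3 of 19 in complex IV, 9 of 17 in complex V and 4 of 8 among the assembly factors. With the 2 macrophage-labelled arrays averaged and counted as 1 sample, far fewer members passed the F test. Where arrays were left out or averaged in the comparisons below, calls over all genes changed as well.

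T2M against macrophages: 28 members were lower in T2M and 1 was higher, where 10.6% of all genes were lower and 6.53% higher. Among genes above the median level, which resemble the members in brightness, 16.9% were lower. The median difference of the members was -0.73, against 0.18 over all genes and -0.40 over genes above the median level. The lower members were 10 of 34 in complex I, 0 of 4 in complex II, 6 of 8 in complex III, 2 of 19 in complex IV, 7 of 17 in complex V and 3 of 8 assembly factors. T2M arrays were all below the macrophage-labelled arrays for 54 members and all above for 9, against 27.7% and 40.7% of all genes. Of 9096 genes above the median level, they were all below for 4002 and all above for 2069. With the macrophage-labelled arrays averaged as 1 sample, or 1 of them left out, hardly any member passed. Fewer of all genes passed too. Without the third T2M array 13 members passed, where 666 of 18193 genes were higher and 1098 lower.

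Eosinophils against macrophages: 35 members were lower in eosinophils and 1 was higher, where 11.5% of all genes and 18.2% of genes above the median level were lower and 5.89% of all genes were higher. The members' median difference was -1.17, against 0.18 over all genes and -0.36 over genes above the median level. Lower members were 15 of 34 in complex I, 0 of 4 in complex II, 3 of 8 in complex III, 5 of 19 in complex IV, 8 of 17 in complex V and 4 of 8 assembly factors. Eosinophil-labelled arrays lay below the macrophage-labelled arrays for 74 members and above for 4, against 31.7% and 46.1% of all genes. Of 9096 genes above the median level, they lay below for 4468 and above for 2671. With the macrophage-labelled arrays averaged as 1 sample, or 1 of them left out, few members passed, at a share near that of all genes. Without 1 of the eosinophil-labelled arrays fewer members and fewer of all genes passed. This comparison and the last share the macrophage-labelled arrays.

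T2M against neutrophils: 7 members were lower in T2M and 0 higher, where 1.57% of all genes were lower, 2.78% of genes above the median level were lower, and 1.25% of all genes were higher. The median difference of the members was -0.58, against -0.03 over all genes and -0.16 over genes above the median level. T2M arrays lay below the neutrophil-labelled arrays for 40 members and above for 0, against 15.1% and 10.7% of all genes. Of 9096 genes above the median level, they lay below for 2054 and above for 973. The 7 were 4 complex I subunits, the assembly factor gene Ndufaf5, and Atp5b and Atp5mpl of complex V. Between 0 and 11 members passed when 1 array was left out, with 0 without T2M 3 or either macrophage-labelled array, 3 without T2M 2 or neutrophil 2, 4 without T2M 1 and 11 without neutrophil 1.

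Eosinophils against neutrophils: 20 members were lower in eosinophils and 0 higher, where 4.33% of all genes and 7.77% of genes above the median level were lower and 3.55% of all genes were higher. Complex I gave 11 of the 20, complex V 6, and complexes III and IV and the assembly factors 1 each. The median difference was -1.03, against -0.07 over all genes and -0.17 over genes above the median level. The eosinophil-labelled arrays lay below the neutrophil-labelled arrays for 54 members and above for 2, against 23.7% and 16.7% of all genes. Of 9096 genes above the median level, they lay below for 2895 and above for 1871. Without the first or the second eosinophil-labelled array 10 or 5 members passed, 11 without the second neutrophil-labelled array, and 9 without either macrophage-labelled array or with the pair averaged.

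T2M against eosinophils: 2 members were higher in T2M (Ndufa5 and Atp5d) and 2 lower (Ndufb4 and Ndufaf7), where 1.57% of all genes were higher and 2.89% lower, so that the share of members called was near that of all genes. The members' median difference was 0.43, against 0.06 over all genes, and 66 of 90 differences were positive. T2M arrays were all above the eosinophil-labelled arrays for 31 members and all below for 6, against 19.4% and 14% of all genes. Of 9096 genes above the median level, they were all above for 1912 and all below for 1723. Calls numbered 0 without the second eosinophil-labelled array or either macrophage-labelled array, 1 without T2M 2 or T2M 3, and 10 without either neutrophil-labelled array. Neutrophils against macrophages: 0 members passed limma's test in either direction, where 1.13% of all genes were higher and 1.13% lower, and 6 members had an unadjusted p under 0.05. Neutrophil-labelled arrays lay above the macrophage-labelled arrays for 14 members and below for 14, against 36.8% and 23.1% of all genes. Of 9096 genes above the median level, they lay above for 2050 and below for 3239. Without the second neutrophil-labelled array 6 passed.

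**Figure D2:**
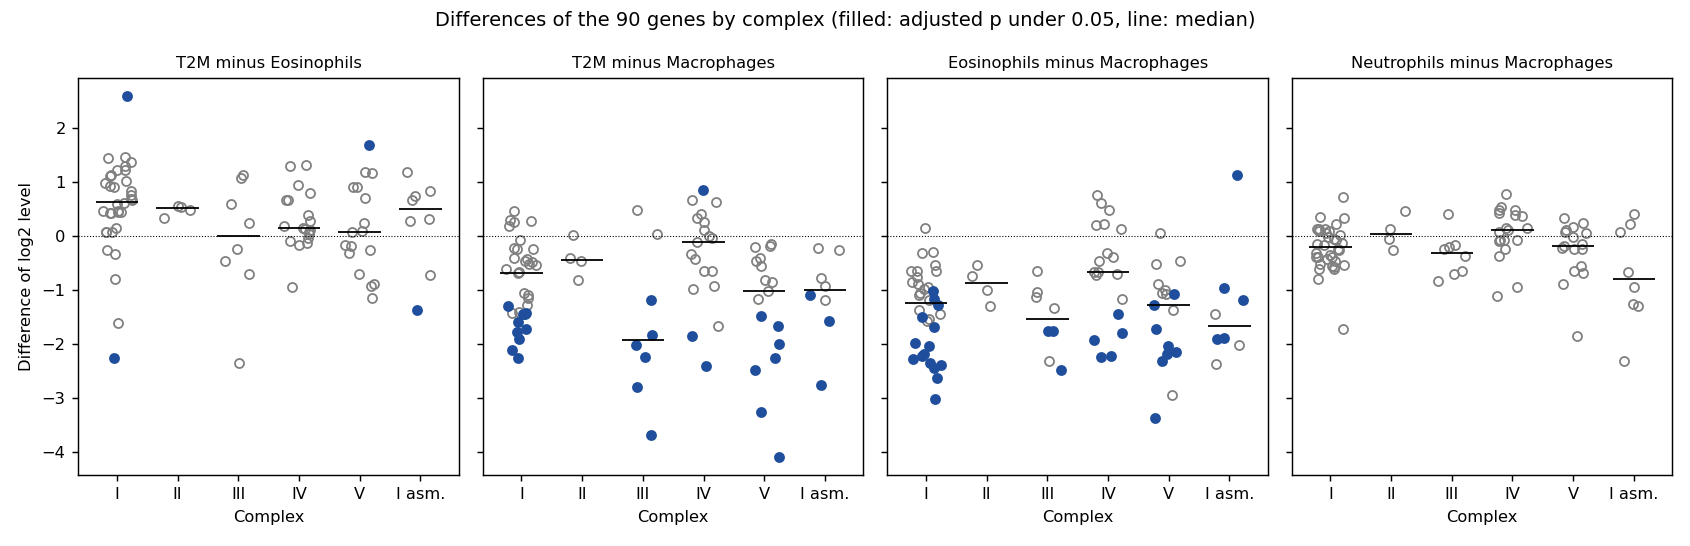
Difference of log2 level for each of the 90 members (points) by complex, in 4 of the 6 comparisons; "I asm." stands for complex I assembly factors, filled points passed an adjusted p under 0.05 and lines mark medians. Filled points lie mostly below 0 in both panels against macrophages (28 of 29 and 35 of 36), complex II has none, and the panel of neutrophils minus macrophages has none at all.

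Promoter windows are shown for 4 genes that were lower in T2M or eosinophils than in macrophages and hold a motif close to the start. Nuclear genes of the chain are known targets of the factors NRF1, GABPA and YY1. The lines give 120 bases before and 10 after the start of the RefSeq transcript (GRCm38.p6), 5′ to 3′ on the gene's strand, which is the minus strand for all 4, with motif matches in capitals. They come from Atp5g2 (chr15:102671038-102671167), Atp5k (chr5:108434390-108434519), Atp5h (chr11:115419910-115420039) and Uqcr11 (chr10:80406812-80406941).
Atp5g2: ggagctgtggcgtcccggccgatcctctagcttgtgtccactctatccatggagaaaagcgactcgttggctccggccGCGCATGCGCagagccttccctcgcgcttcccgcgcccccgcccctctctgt
Atp5k: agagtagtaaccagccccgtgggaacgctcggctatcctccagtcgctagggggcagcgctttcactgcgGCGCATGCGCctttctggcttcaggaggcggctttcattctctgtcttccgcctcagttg
Atp5h: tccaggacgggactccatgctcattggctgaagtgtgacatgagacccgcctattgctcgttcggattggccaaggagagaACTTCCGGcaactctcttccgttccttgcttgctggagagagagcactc
Uqcr11: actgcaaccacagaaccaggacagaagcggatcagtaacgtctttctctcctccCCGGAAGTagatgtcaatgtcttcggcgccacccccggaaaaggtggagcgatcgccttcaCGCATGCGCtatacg

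The capitals in Atp5g2 and Atp5k are the NRF1 letters read on both strands, which overlap, starting 42 and 50 bases before the start. Atp5h holds the GABPA letters, and Uqcr11 holds both motifs on the opposite strand. Promoters were on hand for 74 of 90 members, and each motif was searched on both strands from 250 bases before to 50 after the start. The NRF1 letters GCGCATGCG occurred in 9 of 74 members (12.2%), against 3.09% of 14452 measured genes with a promoter. The YY1 letters AAGATGGC occurred in 10 (13.5%, against 4.07%) and the GABPA letters ACTTCCGG in 5 (6.76%, against 6.62%). Any of the 3 was found in 12 of 43 members called in at least 1 comparison (27.9%) and in 11 of 31 called in none (35.5%). A match describes these letters only, and binding was not measured.

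Complex I, accessory subunits. Ndufa9, an accessory subunit that supports the ubiquinone-binding part of the enzyme, had log2 levels of 8.28, 8.47 and 8.44 on T2M arrays, 7.77 and 6.43 on eosinophil-labelled arrays, 9.88 and 10.55 on neutrophil-labelled arrays, and 10.14 and 10.10 on macrophage-labelled arrays. The 4 labels formed 2 levels without overlap, with T2M and eosinophils low and neutrophils and macrophages high, and the eosinophil-labelled arrays were below the T2M arrays. By limma it was 8.09-fold lower in eosinophils than in macrophages (log2 difference -3.02, SE 0.42, adjusted p = 0.00267) and 8.64-fold lower than in neutrophils (-3.11, adjusted p = 0.00529). In T2M it was 3.29-fold lower than in macrophages (-1.72, SE 0.39, adjusted p = 0.0214).

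Ndufb10, an accessory subunit of the membrane arm, had the smallest F p of complex I. Its levels were 8.69, 8.66 and 8.89 on T2M arrays, 7.58 and 7.90 on eosinophil-labelled arrays, 9.82 and 10.44 on neutrophil-labelled arrays and 10.44 and 9.95 on macrophage-labelled arrays. The eosinophil-labelled arrays were again lowest, T2M arrays stood between, and the remaining labels overlapped. It was 5.47-fold lower in eosinophils than in macrophages (-2.45, SE 0.30, adjusted p = 0.00155), 5.25-fold lower than in neutrophils (-2.39, SE 0.30, adjusted p = 0.00404), and in T2M it was below macrophages (-1.44, adjusted p = 0.0118) and neutrophils (-1.38, adjusted p = 0.041). Of 30 differences named by rule, those of Ndufb10 and Ndufa9 between eosinophils and macrophages alone passed the test under all 11 other ways of processing and in all 9 fits without 1 array.

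Ndufa5, an accessory subunit of the matrix arm, was lowest on the eosinophil-labelled arrays. It read 11.50, 10.96 and 10.28 on T2M arrays, 9.15 and 7.53 on eosinophil-labelled arrays, 11.57 and 11.31 on neutrophil-labelled arrays and 10.72 and 10.73 on macrophage-labelled arrays. T2M exceeded eosinophils 5.96-fold (2.57, SE 0.50, adjusted p = 0.027) and did not pass against neutrophils (-0.53) or macrophages (0.18). Eosinophils were 8.60-fold below neutrophils (-3.11, SE 0.54, adjusted p = 0.0134) and 5.25-fold below macrophages (-2.39, adjusted p = 0.02). A second probe set of Ndufa5 differed the same way by 0.94 between T2M and eosinophils. On that set the T2M arrays (8.24, 8.13 and 8.17) were also below the neutrophil-labelled (9.50 and 9.39) and macrophage-labelled arrays (8.81 and 8.87), by -1.27 and -0.66.

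Other accessory subunits differed in 1 or more comparisons. Ndufc2 was lower in eosinophils than in macrophages by 2.63 on the log2 scale (difference -2.63, SE 0.50, adjusted p = 0.01) and neutrophils (-2.15, adjusted p = 0.0377). Ndufb4, a dim probe set, read 4.46, 3.55 and 3.93 on T2M arrays and 6.80 and 5.67 on eosinophil-labelled arrays. Its T2M level was thus lower (-2.26, SE 0.49, adjusted p = 0.0418). Ndufa7 was 4.82-fold lower in T2M than in macrophages (-2.27, SE 0.39, adjusted p = 0.00837). Against neutrophils, T2M had lower Ndufb2 (-1.78, adjusted p = 0.0262) and Ndufs5 (-1.56, SE 0.25, adjusted p = 0.0211). Ndufb2 had several probe sets above the median level, and their differences between T2M and neutrophils did not share a sign. Ndufb7, the brightest complex I probe set, passed in no comparison and read 11.81, 13.02 and 12.80 on T2M arrays, 11.40 and 11.26 on eosinophil-labelled arrays, 12.63 and 12.63 on neutrophil-labelled arrays, and 12.29 and 12.28 on macrophage-labelled arrays.

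Complex I, redox core. The 6 measured core subunits carry the flavin or the iron-sulfur clusters, or lie in the arm that leads to ubiquinone. Ndufs3, a core subunit of the module that reduces ubiquinone, read 8.12, 8.06 and 7.30 on T2M arrays, 7.19 and 7.55 on eosinophil-labelled arrays, 9.04 and 9.88 on neutrophil-labelled arrays and 9.44 and 9.39 on macrophage-labelled arrays. The T2M and eosinophil-labelled arrays overlapped, and both were below all arrays of the remaining labels. It was lower in T2M than in macrophages (-1.59, SE 0.35, adjusted p = 0.0192) and neutrophils (-1.63, adjusted p = 0.0496), and in eosinophils than in macrophages (-2.04, SE 0.38, adjusted p = 0.00899) and neutrophils (-2.09, adjusted p = 0.0155). Ndufs8, which holds iron-sulfur clusters, was lower in eosinophils than in macrophages (-2.28, SE 0.47, adjusted p = 0.0141) and neutrophils (-2.10, adjusted p = 0.0336), and did not pass for T2M against macrophages (-1.06, adjusted p = 0.12). The other four core genes passed in no comparison. Between eosinophils and macrophages Ndufv1, the NADH-binding flavin subunit, differed by -1.45 (SE 0.66), its partner Ndufv2 by -1.58, Ndufs7 by -0.90 and Ndufs1, the largest core subunit, by -0.30.

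Complex I, assembly factors. Ndufaf5, an arginine hydroxylase of Ndufs7, read 6.78, 6.98 and 6.68 on T2M arrays, 6.19 and 5.80 on eosinophil-labelled arrays, 8.45 and 7.79 on neutrophil-labelled arrays and 8.00 and 7.81 on macrophage-labelled arrays. Both low labels stayed below both high labels. Eosinophils were 4.35-fold below neutrophils (-2.12, SE 0.29, adjusted p = 0.00562) and T2M 2.47-fold below (-1.30, SE 0.27, adjusted p = 0.0455). Ndufaf3 was 6.76-fold lower in T2M than in macrophages (-2.76, SE 0.56, adjusted p = 0.0151). Ndufaf7, an arginine methyltransferase, ran the other way and read 6.43, 6.92 and 6.85 on T2M arrays, 8.19 and 8.02 on eosinophil-labelled arrays, 7.28 and 7.49 on neutrophil-labelled arrays and 6.90 and 7.07 on macrophage-labelled arrays. It was lower in T2M than in eosinophils (-1.37, SE 0.23, adjusted p = 0.0174) and higher in eosinophils than in macrophages (1.12, adjusted p = 0.0207). Ndufaf8, the brightest assembly factor probe set, was lower in eosinophils than in macrophages (-0.96, adjusted p = 0.0466).

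**Figure D3:**
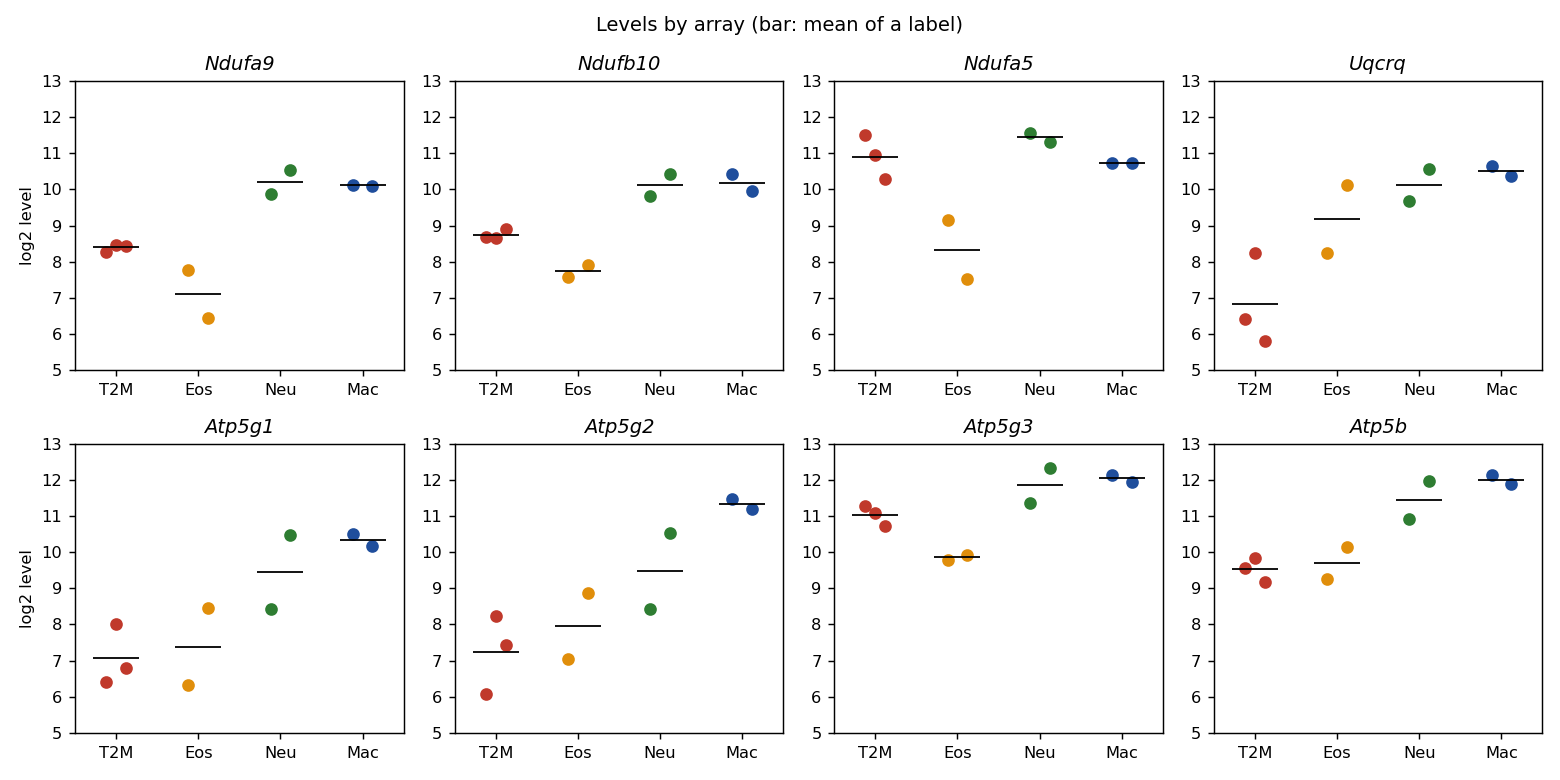
Log2 level of 8 members on every array (points) with the mean of each label (bars), all panels on 1 axis range. Ndufa9 and Ndufb10 separate T2M and eosinophil-labelled arrays from the other labels, Ndufa5, by its brightest probe set, is lowest on the eosinophil-labelled arrays (9.15 and 7.53), and Atp5g1 and Atp5g2 spread by over 1 within the T2M, eosinophil and neutrophil labels.

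Complex II. None of the 4 succinate dehydrogenase genes passed limma's F test or any comparison. Sdha, the flavin subunit, read 10.39, 9.94 and 10.49 on T2M arrays, 10.27 and 9.22 on eosinophil-labelled arrays, 10.71 and 10.66 on neutrophil-labelled arrays and 10.69 and 10.80 on macrophage-labelled arrays. Its T2M and eosinophil-labelled arrays overlapped and all lay below the other 4. Sdhb, the iron-sulfur subunit, read 8.68, 9.14 and 8.52 on T2M arrays, 8.40 and 8.20 on eosinophil-labelled arrays, 8.69 and 10.01 on neutrophil-labelled arrays and 9.51 and 9.70 on macrophage-labelled arrays. Sdha averaged 9.74 in eosinophils and 10.75 in macrophages, and the difference was -1.30 (SE 0.42) for Sdhb, -0.75 (SE 0.38) for the membrane anchor Sdhc and -0.54 (SE 0.42) for its partner Sdhd, with adjusted p from 0.0689 to 0.381 over the 4 genes. Between T2M and macrophages they ran from -0.82 (Sdhb) to 0.01 (Sdhd). All 4 genes were thus on the low side in eosinophils, by amounts that did not pass the test.

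Complex III. Uqcrfs1, the Rieske iron-sulfur protein, had the smallest F p of the complex and read 8.67, 8.18 and 8.10 on T2M arrays, 7.63 and 7.83 on eosinophil-labelled arrays, 9.04 and 9.46 on neutrophil-labelled arrays and 9.59 and 9.41 on macrophage-labelled arrays. The eosinophil-labelled arrays were lowest and the T2M arrays next, with no overlap with the higher labels. It was 2.27-fold lower in T2M than in macrophages (-1.18, SE 0.26, adjusted p = 0.0192), 3.41-fold lower in eosinophils than in macrophages (-1.77, SE 0.28, adjusted p = 0.00474), and 2.86-fold lower in eosinophils than in neutrophils (-1.52, adjusted p = 0.0174). Of the other core proteins, Uqcrc1 was lower in T2M than in macrophages (-2.24, SE 0.56, adjusted p = 0.0306) and in eosinophils than in macrophages (-2.48, SE 0.61, adjusted p = 0.028). Its partner Uqcrc2 passed in no comparison (0.03 for T2M minus macrophages, -1.04 for eosinophils minus macrophages).

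The small accessory subunit gene Uqcrq read 6.42, 8.26 and 5.82 on T2M arrays, 8.23 and 10.13 on eosinophil-labelled arrays, 9.68 and 10.58 on neutrophil-labelled arrays and 10.66 and 10.37 on macrophage-labelled arrays. The T2M arrays reached lowest and 1 of them touched the eosinophil-labelled range. T2M was 12.8-fold below macrophages (-3.68, SE 0.77, adjusted p = 0.0162), but a second, dimmer probe set of the gene differed by only -0.33. Uqcr11, whose promoter is shown above, read 6.08, 8.21 and 7.16 on T2M arrays, against 10.32 and 9.56 on macrophage-labelled arrays (-2.79, SE 0.77, adjusted p = 0.0429). Uqcr10 (-2.01) and Uqcrh (-1.83) were also lower in T2M than in macrophages. Uqcrb, the brightest probe set of the complex, passed in no comparison.

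Complex IV. By the brightest probe set of each gene, most common subunits passed in no comparison. Over the 11 genes left without tissue-restricted isoforms, the median difference was -0.65 for T2M minus macrophages and -0.72 for eosinophils minus macrophages. Cox6a1, the brightest, passed in no comparison and read 12.85, 12.57 and 12.46 on T2M arrays, 12.40 and 12.59 on eosinophil-labelled arrays, 12.76 and 12.98 on neutrophil-labelled arrays and 13.07 and 12.84 on macrophage-labelled arrays. Cox5a and Cox5b, whose proteins face the matrix, passed in no comparison (0.00 and -0.65 for T2M minus macrophages). Other bright probe sets of common subunits gave differences of other sizes. For T2M minus macrophages they gave -1.22 and -0.14 for Cox5a, -1.95 for Cox6a1 (brightest -0.33) and -1.26 for Cox7a2 (brightest -0.12). Cox8a gave -1.28 (brightest -1.67). For eosinophils minus macrophages Cox6c gave -2.37 (brightest -1.17). How far these subunits differed thus depended on the probe set chosen. Cox4i1, the common form of the largest nuclear subunit, read 8.70, 10.39 and 10.30 on T2M arrays, 9.15 and 10.77 on eosinophil-labelled arrays, 11.15 and 11.38 on neutrophil-labelled arrays and 12.14 and 12.27 on macrophage-labelled arrays. It was 5.30-fold lower in T2M than in macrophages (-2.41, SE 0.59, adjusted p = 0.0295) and 4.73-fold lower in eosinophils than in macrophages (-2.24, SE 0.65, adjusted p = 0.0489). Ndufa4 was lower in eosinophils than in macrophages (-2.22, SE 0.39, adjusted p = 0.00746) and neutrophils (-1.98, adjusted p = 0.0217), and Cox7a2l, a supercomplex factor, than in macrophages (-1.44, adjusted p = 0.0112).

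The tissue-restricted isoforms gave dim signals. Their median level on each array lay between 5.62 and 6.32, near that of all genes, and muscle markers, which mark the tissue where several are used, had medians of 5.13 to 5.85. Cox6b2, the testis form, had the smallest F p of the complex. It read 6.30, 6.64 and 6.31 on T2M arrays, 6.29 and 6.63 on eosinophil-labelled arrays, 6.73 and 7.56 on neutrophil-labelled arrays and 8.00 and 8.52 on macrophage-labelled arrays. It was lower than in macrophages in T2M (-1.85, SE 0.31, adjusted p = 0.00738) and in eosinophils (-1.80, SE 0.34, adjusted p = 0.00959), while its common counterpart Cox6b1 differed by -0.42 and -0.33 and did not pass. A second bright probe set of Cox6b1 differed by -1.26 for T2M minus macrophages and -0.44 for eosinophils minus macrophages. Cox6a2, the heart and muscle form, was higher in T2M than in macrophages (0.85, SE 0.25, adjusted p = 0.0499), at 7.51, 7.59 and 7.34 on T2M arrays against 6.71 and 6.56 on macrophage-labelled arrays. With the probe set of largest variance in place of the brightest this difference was -0.04. Cox4i2, Cox7a1, Cox7b2, Cox8b, Cox8c and Ndufa4l2 passed in no comparison, nor did the common forms Cox7a2 and Cox8a.

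**Figure D4:**
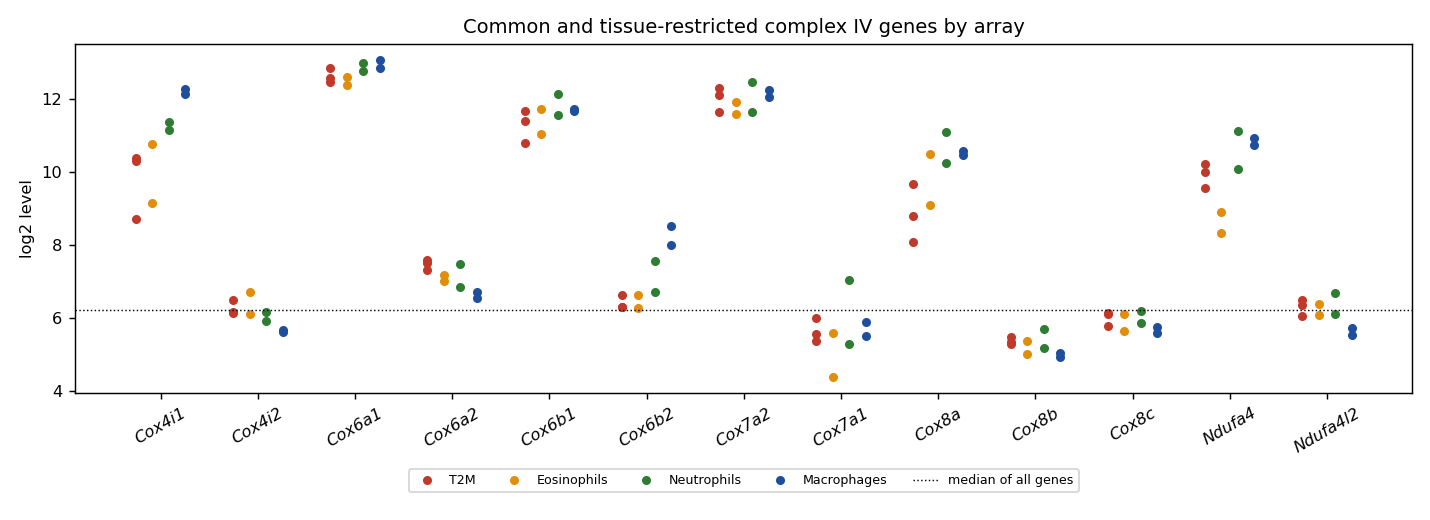
Log2 level on every array of the complex IV genes that have tissue-restricted isoforms, each common form followed by its isoforms; the dotted line is the median gene (6.23). Cox4i1 is highest on the 2 macrophage-labelled arrays (12.14 and 12.27), and among the restricted forms Cox6b2 is likewise highest there (8.00 and 8.52).

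Complex V, head and rotor shaft. Atp5b, the catalytic beta subunit, read 9.56, 9.84 and 9.17 on T2M arrays, 9.26 and 10.14 on eosinophil-labelled arrays, 10.92 and 11.97 on neutrophil-labelled arrays and 12.13 and 11.89 on macrophage-labelled arrays. T2M and eosinophil-labelled arrays overlapped, and all 5 were below the other 4. It was 5.61-fold lower in T2M than in macrophages (-2.49, SE 0.39, adjusted p = 0.00578) and 3.80-fold lower than in neutrophils (-1.92, SE 0.39, adjusted p = 0.0453). In eosinophils it was 4.95-fold lower than in macrophages (-2.31, SE 0.43, adjusted p = 0.0092) and 3.35-fold lower than in neutrophils (-1.74, adjusted p = 0.0466). Its partner in the head, the alpha subunit gene Atp5a1, passed in no comparison. It read 12.32, 11.88 and 12.03 on T2M arrays and 11.79 and 10.57 on eosinophil-labelled arrays. Neutrophil-labelled arrays read 12.50 and 12.41 and macrophage-labelled arrays 12.17 and 12.29. Eosinophils minus macrophages was -1.05 on this probe set, and -1.10 and -2.22 on other bright sets of Atp5a1. T2M minus macrophages was -0.15 on this set, and -0.03 and -0.89 on the others. Atp5c1, the gamma subunit of the rotor, was lower than in macrophages in T2M (-1.49, SE 0.42, adjusted p = 0.0446) and in eosinophils (-1.72, SE 0.46, adjusted p = 0.0363). Atp5d, the delta subunit, was higher in T2M than in eosinophils (1.67, SE 0.35, adjusted p = 0.0382), where its second probe set differed by 0.32.

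Complex V, c ring. Atp5g1, Atp5g2 and Atp5g3 encode precursors of the same mature subunit c, which forms the rotor ring in the membrane. Atp5g2 gave the greatest difference among the members, with 6.08, 8.22 and 7.42 on T2M arrays, 7.04 and 8.86 on eosinophil-labelled arrays, 8.43 and 10.52 on neutrophil-labelled arrays and 11.47 and 11.18 on macrophage-labelled arrays. The macrophage-labelled arrays were above all others, and the first 3 labels each spread by over 1. T2M was 16.98-fold below macrophages (-4.09, SE 0.81, adjusted p = 0.0138) and eosinophils were 10.4-fold below (-3.38, SE 0.89, adjusted p = 0.0351). Atp5g1 read 6.40, 8.02 and 6.79 on T2M arrays, 6.33 and 8.45 on eosinophil-labelled arrays, 8.42 and 10.47 on neutrophil-labelled arrays and 10.51 and 10.16 on macrophage-labelled arrays. It was 9.59-fold lower in T2M than in macrophages (-3.26, SE 0.79, adjusted p = 0.0275) and did not pass for eosinophils (-2.94, SE 0.87, adjusted p = 0.051).

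Atp5g3 had a narrower spread, at 11.27, 11.07 and 10.73 on T2M arrays, 9.78 and 9.93 on eosinophil-labelled arrays, 11.37 and 12.33 on neutrophil-labelled arrays and 12.14 and 11.94 on macrophage-labelled arrays. It was lowest on the eosinophil-labelled arrays, and the T2M arrays were below both remaining labels. Eosinophils were 4.55-fold below macrophages (-2.19, SE 0.35, adjusted p = 0.00451) and 3.98-fold below neutrophils (-1.99, adjusted p = 0.0129), while T2M minus macrophages (-1.02, SE 0.32, adjusted p = 0.0592) did not pass. In the stalk and membrane part, Atp5mpl read 9.06, 10.09 and 9.29 on T2M arrays, against 11.19 and 11.48 on neutrophil-labelled and 11.55 and 11.41 on macrophage-labelled arrays. T2M was lower than neutrophils (-1.85, SE 0.32, adjusted p = 0.0281) and macrophages (adjusted p = 0.00632). Atp5o, a stalk subunit known as OSCP, was lower in eosinophils than in neutrophils (-2.14, SE 0.47, adjusted p = 0.0295) and macrophages (-2.03, adjusted p = 0.0205). Atp5k and Atp5h, shown above, were lower in eosinophils than in macrophages (-1.27 and -1.08).

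Levels of 4 members also moved with the Gapdh control inside labels. Atp5g1, Atp5g2, Uqcr11 and Uqcrc1 were over 1 higher on replicate 2 than on replicate 1 in the T2M, eosinophil and neutrophil labels, as were 0.429% of all genes against 4.44% of members, and in each of these labels the Gapdh difference was smaller on replicate 2. In all, 27 members (30%) were higher on replicate 2 in all 3 labels, against 12.9% of all genes. Between the neutrophil-labelled arrays 74 of 90 members were higher on replicate 2, by a median of 0.78, against -0.09 over all genes. Between the first 2 T2M arrays 49 of 90 were higher on replicate 2 (median 0.09), against 51.5% of all genes. Between the eosinophil-labelled arrays 45 of 90 were, against 49.9% of all genes. Without T2M 1 and eosinophil 1, which had the highest 3′ minus 5′ difference of the actin control as well (0.61 and 0.54, against -0.10 to 0.03 elsewhere), 27 members passed for T2M against macrophages, 27 for eosinophils against macrophages and 17 for eosinophils against neutrophils. The part of RNA quality in the level of single members was not tested.

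**Figure D5:**
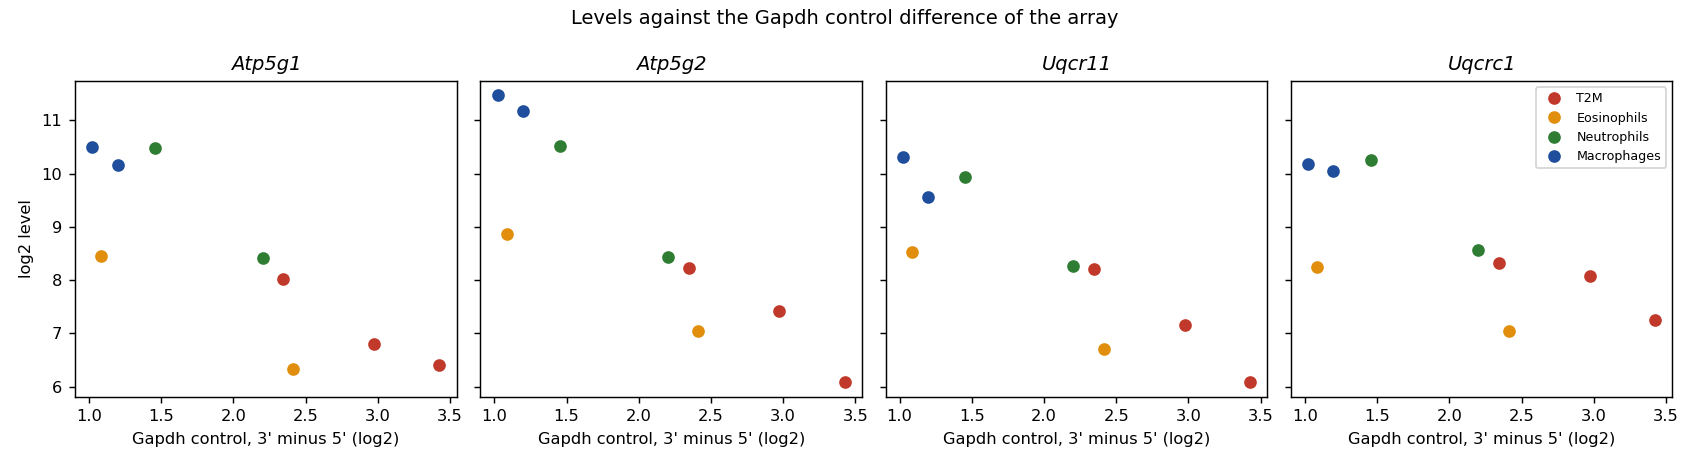
Log2 level of Atp5g1, Atp5g2, Uqcr11 and Uqcrc1 on each of the 9 arrays (points, coloured by label) against the Gapdh 3′ minus 5′ difference of that array. Atp5g2 reads 6.08 on the T2M array with the greatest Gapdh difference (3.43) and 11.47 on the macrophage-labelled array with the smallest (1.02).

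Different probe sets of a member mostly pointed the same way for eosinophils. Of 42 members with several probe sets above the median level, the sets had the same sign for 40 in eosinophils against macrophages and 38 in eosinophils against neutrophils. For T2M the count was 29 against macrophages, 31 against neutrophils and 30 against eosinophils.

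Other genes of respiration were counted from lists. Their counts stand against 10.6% of all genes and 16.9% of genes above the median level lower in T2M than in macrophages. In eosinophils 11.5% and 18.2% were lower than in macrophages. Of all genes 6.53% were higher in T2M, and 5.89% in eosinophils, than in macrophages. Against neutrophils, 4.33% of all genes and 7.77% of genes above the median level were lower in eosinophils, and 3.55% of all genes higher. In T2M 2.89% of all genes were lower and 1.57% higher than in eosinophils. Beyond the members, 8 of 37 assembly factors were lower in T2M than in macrophages, among them Coa3 (-2.43) for complex IV and Uqcc2 (-1.76) for complex III, and 1 was higher, the copper chaperone gene Cox17 (0.98). Of these 37, 10 were lower and 1 was higher in eosinophils than in macrophages, and 3 were lower and 2 higher than in neutrophils. In T2M 1 was lower and 1 higher than in eosinophils. The assembly factor counts against neutrophils and between T2M and eosinophils were near the shares above. Of 18 electron carriers and entry points, 5 were lower and 2 higher in T2M than in macrophages. Cycs, cytochrome c itself, differed by -1.44 (adjusted p = 0.00901) and by -1.91 against neutrophils (adjusted p = 0.0117), and Cyc1, the cytochrome of complex III, by -1.23 and -1.35. In eosinophils 6 of 18 were lower than in macrophages and 3 lower than in neutrophils.

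Of 17 citric acid cycle genes, 4 were lower in T2M than in macrophages, with Idh2, mitochondrial isocitrate dehydrogenase, at -2.71 and Suclg1 at -2.35, and 7 were lower in eosinophils than in macrophages. Of 14 genes of mitochondrial gene expression, 2 were lower in T2M than in macrophages, namely Tfam (-2.16), which packages and transcribes mitochondrial DNA, and the elongation factor gene Tufm (-1.91), and 4 were lower in eosinophils. The T2M share was near that of all genes. Of 11 nuclear regulators, Nrf1 (-1.41), Hcfc1 (-1.91) and Pprc1 (-1.14) were lower in T2M than in macrophages, while Gabpb1 (1.79) and Hif1a (1.91), which favours glycolysis, were higher. Of 15 carriers and outer membrane genes, Tomm40 (-1.78) and the ADP/ATP carrier gene Slc25a5 (-1.43) were lower in T2M than in macrophages, again a share near that of all genes. The 1 measured gene of mitochondrial DNA, ND5 of complex I, passed in no comparison and read 13.01, 12.60 and 12.77 on T2M arrays, 12.04 and 11.66 on eosinophil-labelled arrays, 12.99 and 12.03 on neutrophil-labelled arrays and 11.95 and 12.13 on macrophage-labelled arrays. The T2M arrays were thus not low for ND5, while they were low for Ndufa9, Ndufs3 and Atp5b. Not all nuclear members were low there, as T2M minus macrophages was positive for 16 of 90 and negative for 74. With 1 mitochondrial gene measured, mitochondrial and nuclear genes cannot be compared as groups.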

How the data were processed

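Values were the deposited log2 levels of 45101 probe sets on 9 arrays. The authors made them with affy, RMA and limma, per the submitters' processing notes, and versions and settings are not given in the sources used here. Platform annotation gave 34945 probe sets a single symbol, and each of 18193 genes was represented by whichever of its probe sets was brightest on average. All pairs of labels were compared with limma 3.58.1 in R 4.3.3 on all 9 arrays (5 residual degrees of freedom, two-sided, Benjamini-Hochberg over all genes), with a difference called at an adjusted p under 0.05. Fold changes are powers of 2 of the log2 difference. By the labels, the cells of each replicate were pooled from 4 mice. Whether any arrays share mice is not stated there. The number of arrays limits the precision (median SE 0.308 for T2M comparisons, 0.337 for the others).

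The members and lists were chosen with earlier results of these data known. Named members were the largest called differences per comparison (up to 6 each way), per complex the brightest probe set and the smallest F p, all Sdh genes, isoform pairs, catalytic subunits and up to 3 called genes per list. In simulated data with few of 18193 genes changed, the test recovered 1% of true log2 differences of 1 between T2M and eosinophils. It recovered 50% of those of 2, with 0 calls among unchanged genes. Many differences of this size would thus not pass. Probe set choice, filtering, scaling, moderation, array weights, the replicate block and left-out arrays were varied. Promoters came from RefSeq (GRCm38.p6). Protein sequences were not used here. Whether replicate numbers pair the arrays was not settled, and the main fit did not use them. Plots were drawn with matplotlib 3.10.9.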

Additional observations from a re-analysis of the deposited data

How the results depend on the processing

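Counts below are members called, out of 90. Calls over all genes changed with the setting too, so a shift in these counts need not be particular to the members. Left-out arrays gave 0 to 10 for T2M against eosinophils, 0 to 11 for T2M against neutrophils, 0 to 36 for T2M against macrophages, 5 to 26 for eosinophils against neutrophils, 4 to 44 for eosinophils against macrophages, 0 to 6 for neutrophils against macrophages and 5 to 45 among the 4 labels. With macrophage-labelled arrays averaged, T2M against eosinophils, neutrophils and macrophages gave 0 each, eosinophils against neutrophils 9, eosinophils against macrophages 6, and 5 members differed among the labels. The mean of all probe sets gave 8 for T2M against eosinophils, where 314 of 18193 genes were higher and 741 lower. It gave 1 for neutrophils against macrophages. The probe set of largest variance gave 45 for T2M against macrophages, where 1154 of 18193 genes were higher and 2306 lower. It turned Cox6a2 there to -0.037. Quantile scaling gave 8 for T2M against eosinophils, 3 for T2M against neutrophils and 1 for neutrophils against macrophages. A trended, robust prior gave 3 for T2M against neutrophils. Array weights gave 12 for T2M against eosinophils, 0 for T2M against neutrophils and 58 for T2M against macrophages. They gave 5 for eosinophils against neutrophils, 61 for eosinophils against macrophages and 65 among the labels. Of 18193 genes, these weights called 5344 higher and 4819 lower for T2M against macrophages. For eosinophils against macrophages they called 2679 higher and 3721 lower. For T2M against eosinophils it was 562 and 864, and for eosinophils against neutrophils 284 and 242. Without T2M 1 and eosinophil 1, T2M against neutrophils gave 3 and neutrophils against macrophages 1. Fits on the arrays of both labels alone gave 1 for T2M against eosinophils, 0 for T2M against neutrophils and 0 for eosinophils against neutrophils. The cause of these shifts was not tested beyond fewer arrays in the fit.

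The replicate block gave 1 for T2M against eosinophils, 0 for T2M against neutrophils, 16 for T2M against macrophages and 25 among the labels. It gave 15 and 30 for eosinophils against neutrophils and macrophages. Of 18193 genes it called 638 higher and 1095 lower for T2M against macrophages. For eosinophils against macrophages it called 873 higher and 1724 lower. Same-numbered T2M and eosinophil-labelled arrays deviated together (0.50 and 0.44 for replicates 1 and 2), while those of T2M and neutrophils did not (-0.18 and -0.14). With 2 arrays in the eosinophil and neutrophil labels, unlike numbers gave the same values with opposite sign. This check therefore cannot decide whether the numbers pair the samples. Of 599 recomputed values of 30 named differences, 399 kept their call, 199 lost it and 1 reversed. Of 720 recomputed medians by complex, 691 moved by less than their median SE. Signal over background limits the dim members, such as Ndufb4, Ndufaf1 and Cox7b2.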
